A study of Homo sapiens with 2 samples.

Results

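The posterior HOX genes examined here are HOXA9, HOXA10, HOXA11 and HOXA13 on chromosome 7 and HOXD10, HOXD11 and HOXD13 on chromosome 2. They were set beside chromatin immunoprecipitation and sequencing (ChIP-seq) of EGR1 in t-HESC, an immortalised human endometrial stromal cell line that received no treatment beyond serum-containing growth medium with puromycin. EGR1 intervals called by the authors were taken as members when they lay within 5 kb of one of the 7 gene spans on GRCh37. The distance rule used no score, though the genes were picked with results of these data known, and it found 10 of 7709 intervals, at 6 of the 7 genes. The share of all genes with an interval within 5 kb was not analysed here. The line gave 1 ChIP library and 1 input library, neither with a replicate, so every value describes 1 library and no difference could be tested between cultures. Read depth is unknown, since only called intervals were used. Stromal cell markers could not be checked, since no expression was measured.

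HOX genes encode homeodomain transcription factors that give cells their position along the body axis, and they lie in clusters in the order in which they are used along it. The posterior members pattern the lower trunk, the limbs and the reproductive tract. In the female tract HOXA9 is associated with the oviduct, HOXA10 and HOXA11 with the uterus, and HOXA13 with the cervix and upper vagina. HOXA10 and HOXA11 remain in use in the adult endometrium, where they are needed for stromal decidualization and implantation. HOXD10, HOXD11 and HOXD13 are best known for patterning the limb and digits, and they also act in the urogenital tract. EGR1 is a zinc-finger transcription factor of the immediate early class, which serum and growth factors induce, and it binds GC-rich DNA.

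The promoters of the genes are shown first because EGR1 binds GC-rich promoter DNA. On GRCh37, none of the 7 genes had an interval in the window from 250 bases before to 50 bases after the 5′ end of its span. The window ends soon after the start: the nearest edges lay 221 bp after it at HOXA11, 720 bp at HOXA13 and 886 bp at HOXA9. The share of all genes with an interval in such a window was not analysed here, and the second start of HOXA10 was not checked. The sequences below are RefSeq promoters on GRCh38.p14, matched by symbol, each covering the 250 bases before the start on the gene's own strand. Their positions are on another build than the intervals and cannot be set beside them. All 7 genes matched, with 8 promoters in all, because HOXA10 has 2 starts in the table; the one nearer to its 3′ end is shown. Capitals mark GNGGGCG or its reverse complement, and the single longer match GCGNGGGCG in HOXA9 that overlaps it. GNGGGCG is the EGR1 consensus GCGNGGGCG without its leading GC. HOXA9, HOXA10, HOXA11 and HOXA13 are the members with a summit inside the gene span, and HOXD13 is the member with no interval in reach.
HOXA9, chr7:27165538-27165787, minus strand: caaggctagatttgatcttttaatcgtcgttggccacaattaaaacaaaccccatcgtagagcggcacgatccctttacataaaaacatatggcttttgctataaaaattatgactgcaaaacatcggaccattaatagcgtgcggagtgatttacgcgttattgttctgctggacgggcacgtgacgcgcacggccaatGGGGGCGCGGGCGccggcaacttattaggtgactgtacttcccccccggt
HOXA10, chr7:27174321-27174570, minus strand: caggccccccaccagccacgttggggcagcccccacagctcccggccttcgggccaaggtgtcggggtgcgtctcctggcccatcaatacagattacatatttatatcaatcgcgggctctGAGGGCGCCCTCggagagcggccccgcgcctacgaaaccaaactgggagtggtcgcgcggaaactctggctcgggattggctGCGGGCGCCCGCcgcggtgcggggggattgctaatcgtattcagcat
HOXA11, chr7:27185233-27185482, minus strand: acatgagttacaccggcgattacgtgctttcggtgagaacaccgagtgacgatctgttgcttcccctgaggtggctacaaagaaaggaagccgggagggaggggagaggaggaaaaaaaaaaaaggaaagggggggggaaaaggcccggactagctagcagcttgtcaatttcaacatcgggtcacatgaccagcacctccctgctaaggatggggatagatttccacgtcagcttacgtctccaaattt
HOXA13, chr7:27200092-27200341, minus strand: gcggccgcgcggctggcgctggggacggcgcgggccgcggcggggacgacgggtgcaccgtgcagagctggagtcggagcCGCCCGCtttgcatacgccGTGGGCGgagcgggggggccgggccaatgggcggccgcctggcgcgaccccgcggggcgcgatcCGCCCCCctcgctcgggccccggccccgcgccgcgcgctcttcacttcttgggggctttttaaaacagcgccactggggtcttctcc
HOXD13, chr2:176092471-176092720, plus strand: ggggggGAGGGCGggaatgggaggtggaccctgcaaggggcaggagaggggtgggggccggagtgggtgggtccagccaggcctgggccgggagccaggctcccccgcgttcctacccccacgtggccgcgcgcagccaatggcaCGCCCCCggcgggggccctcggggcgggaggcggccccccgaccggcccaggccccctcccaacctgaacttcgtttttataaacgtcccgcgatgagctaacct

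The EGR1 consensus letters were counted in these windows and in all promoters of the table. GCGNGGGCG, read on both strands, occurred in 1 of the 8 promoters, that of HOXA9, where the match has the letters GCGCGGGCG and begins 46 bases before the start. Among all 34943 promoters in the table, 8.39% held it. Neither GCGTGGGCG nor GCGGGGGCG, the variants usually given as EGR1 sites, occurred in any of the 8, against 0.721% and 4.71% of all promoters. The shorter GNGGGCG occurred in 6 of the 8, against 37.3% of all promoters. The 8 had a higher median share of G or C, 62.8% against 58%, and the promoters were not matched for it. GNGGGCG was found 4 times before the nearer start of HOXA10, 3 times in HOXA13, 2 times each in HOXA9, HOXD10 and HOXD13, and 1 time in HOXD11. HOXA11 and the farther start of HOXA10 had no match. The 4 matches of HOXA10 are overlapping pairs on opposite strands, 2 places in all, and the matches of HOXA9 overlap one another as well.

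Base composition varied widely among the same promoters. HOXA13 was the richest, with 78% G or C and 40 CpG dinucleotides in 250 bases, more CpGs than 97.8% of all promoters. HOXD13 followed with 74% G or C and 21 CpGs. HOXA9 had the lowest share, 48.8%, and HOXA11 had 51.6% with 11 CpGs. The medians of all promoters are 58% and 11 CpGs. The gene with the summit nearest to its start, HOXA11, had a promoter with a G or C share below that median and with no match. These letters describe the promoter windows alone. The sequence under the intervals themselves was not analysed here.

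EGR1 intervals were spread along the posterior HOXA stretch. There were 8 within 5 kb of HOXA9, HOXA10, HOXA11 and HOXA13, and each of these 4 genes had 1 summit inside its span. How many of all genes have a summit inside, or in the part towards the 5′ end, was not analysed here. All 4 of those summits lay in the part of the gene towards its 5′ end, between 371 and 1358 bp after it, or 9.14 to 36.3% of the way along the span. For HOXA10 this holds only from the start used here, since its other RefSeq start lies 5541 bp farther upstream. From there the summit lies more than 5541 bp along a model of 9257 bp, so not towards the 5′ end. The HOXD genes had 2 intervals in reach and no summit inside any span. The authors gave each summit a whole-number score of unstated unit. These scores ran from 13 to 59 at the members, and from 11 to 336 over all 7709 intervals.

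**Figure D1:**
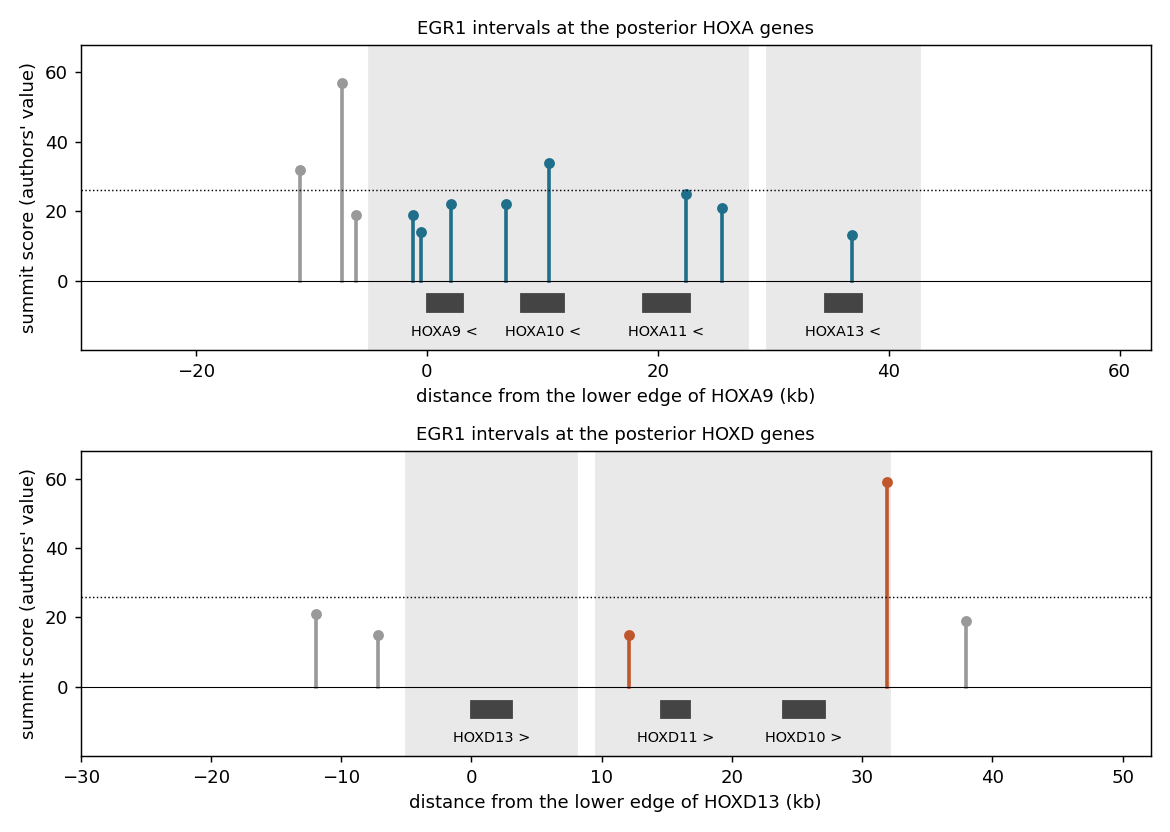
Summit scores of EGR1 intervals (vertical lines, authors' values) against distance in kb from the lower edge of HOXA9 (upper panel) and HOXD13 (lower panel). Dark boxes are gene spans with the direction of transcription (< or >), grey bands reach 5 kb beyond them, coloured lines are the 8 HOXA and 2 HOXD intervals in reach, grey lines are intervals outside, and the dotted line is the median score of all intervals, 26. The coloured HOXA lines are spread over the stretch, and 1 of the 8 passes the dotted line.

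HOXA9, whose span on GRCh37 is chromosome 7, positions 27202057 to 27205149, had 4 intervals in reach, more than any other member. The one inside the gene, at positions 27203922 to 27204263, had a score of 22 and a summit 1037 bp after the 5′ end. Beyond the 3′ end lay intervals at 27201470 to 27201778, with a score of 14, and at 27200661 to 27201115, with a score of 19. These were separated by 354 bp, the only neighbours among the members closer than 1000 bp. HOXA7 is the next gene on that side, and its distance from these intervals was not analysed here. The last interval, with a score of 22, lay 3671 bp before the 5′ end and is shared with HOXA10.

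HOXA10, at positions 27210210 to 27213955, had the strongest interval of the HOXA genes. It covered positions 27212398 to 27212918 inside the span, was 521 bp wide and had a score of 34, and 69.9% of all intervals scored lower. Its summit lay 1358 bp after the 5′ end. The other interval, at 27208820 to 27209052, lay 1158 bp beyond the 3′ end, in the stretch between HOXA9 and HOXA10. In RefSeq's gene order this stretch also holds the antisense RNA gene HOXA10-AS and the microRNA gene MIR196B, and the read-through gene HOXA10-HOXA9 spans it. The interval therefore cannot be given to 1 gene by position.

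HOXA11, at positions 27220776 to 27224835, had the interval nearest to a gene start. That interval, at 27224329 to 27224614, had a score of 25, and its summit lay 371 bp after the 5′ end. Its nearer edge was 221 bp from the 5′ end. A second interval, at 27227448 to 27227757 with a score of 21, lay upstream, with its summit 2813 bp before the 5′ end. HOXA11-AS, an antisense RNA gene, is the gene between HOXA11 and HOXA13 in RefSeq's order. Between the HOXA10 and HOXA11 intervals 11410 bp held none, and a gap of 11041 bp separated the upstream HOXA11 interval from that of HOXA13.

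HOXA13, at positions 27236499 to 27239725, had the weakest interval of all members. It lay inside the gene at 27238799 to 27239005, with a score of 13 and the smallest width in the list, 207 bp. Only 27 of the 7709 intervals had a lower score. Its summit was 845 bp after the 5′ end. It was also the last interval on that side: the next one along chromosome 7 began 463134 bp further on, at position 27702140. Gaps this long or longer made up 18.4% of the 7686 gaps between neighbouring intervals, whose median was 83038 bp.

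The HOXD genes had fewer intervals in reach, and none inside a span. HOXD11, at chromosome 2 positions 176972084 to 176974316, had 1 upstream at 176969613 to 176969819, with a score of 15 and a width of 207 bp. Its summit lay 2436 bp before the 5′ end. HOXD12 is the next gene on that side in RefSeq's order, and its distance from this interval was not analysed here. HOXD10, at 176981492 to 176984670, had 1 interval 4589 bp beyond its 3′ end, at 176989259 to 176989782. This interval had the highest score of all members, 59, and was 524 bp wide. HOXD9 is the next gene beyond HOXD10 on that side, so the interval is within reach of HOXD10 by the distance rule and its place in relation to HOXD9 was not analysed here. HOXD13, at 176957532 to 176960666, had no interval within 5 kb. The nearest lay 7075 bp away on the upstream side, with a score of 15, and the nearest on the other side was 8947 bp away. EVX2 is the next gene on the upstream side of HOXD13, and its place in relation to that interval was not analysed here.

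**Figure D2:**
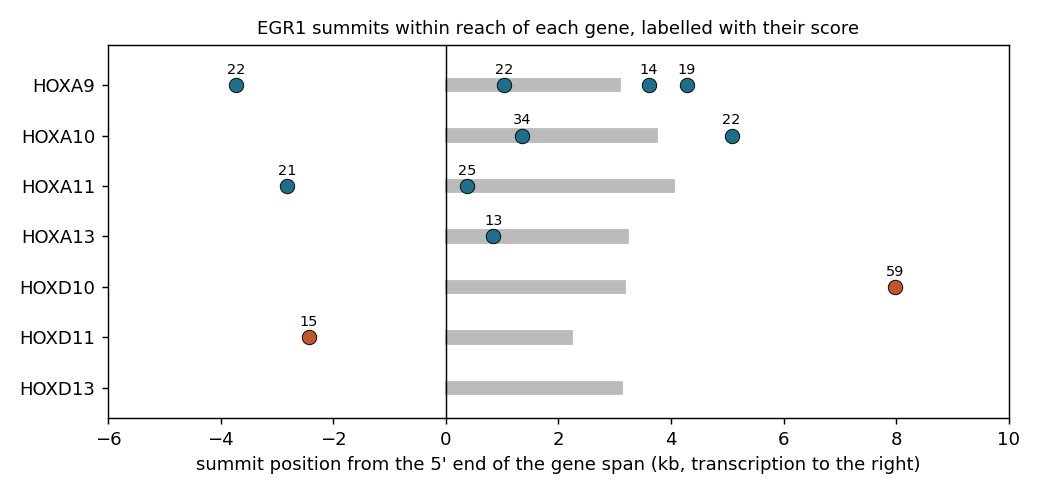
Position of each EGR1 summit in reach of a gene, in kb from the 5′ end of the gene span, with transcription to the right; grey bars are the gene spans and the number above each point is the authors' summit score. The interval between HOXA9 and HOXA10 appears in both rows. All 4 HOXA bars have 1 summit at 371 to 1358 bp, for HOXA10 as measured from its nearer start, and the HOXD bars have none.

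The gene spans bear on which intervals count as inside. The RefSeq models on GRCh38.p14 of HOXA10, HOXA13, HOXD11 and HOXD13 are over 1.5 times longer than the spans used here, and those of HOXA9, HOXA11 and HOXD10 are close to them. For HOXD13 the model is 8458 bp against a span of 3135 bp, so its lack of an interval within 5 kb may depend on the span used. Among intervals inside the distance of 5 kb, the farthest were the HOXD10 interval at 4589 bp, with a score of 59, and the upstream HOXA11 interval at 2613 bp, with a score of 21. Outside this distance, an interval with a score of 19 lay 5950 bp from HOXA9 and one with a score of 57 lay 6832 bp from it. At HOXD13 the nearest outside had a score of 15.

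The scores of the member intervals were set beside those of the whole list. Their median score was 21.5 (quartiles 16 and 24.25), against 26 over all intervals (quartiles 20 and 37). An order-statistic 95% interval of the members' median was 14 to 34. It treats the 10 intervals as independent, which neighbours in 1 library are not, so it cannot serve as a test against 26. Below the lower quartile of all scores lay 4 of the 10, against 1713 of all 7709 intervals. A score of at least 26 was reached by 2 of the 10, against 51% of all intervals. These lay inside HOXA10 and 4589 bp beyond the 3′ end of HOXD10. A score of at least 57 was reached by 1, the interval beyond HOXD10, against 10.2% of all intervals. The median width was 309.5 bp, from 207 to 524 bp, against 343 bp over all intervals. The smallest width, 207 bp, was found at HOXA13 and HOXD11, 2 of the 10 intervals, against 4.79% of all. When neighbours within 1000 bp were joined, the HOXA9 pair was the only site of several intervals, so 2 of the 10 lay in such a site, against 27.3% of all intervals. With 10 intervals these shares are descriptions, and none was tested.

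**Figure D3:**
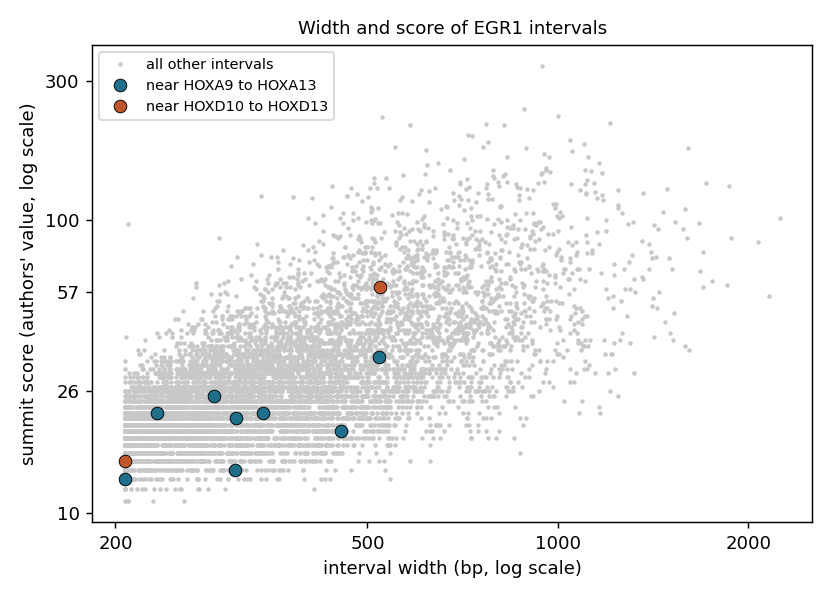
Width in bp against the authors' summit score for all 7709 EGR1 intervals, both on log axes, with the 8 HOXA and 2 HOXD intervals in colour. Most coloured points lie below the median score of 26. The exceptions are the interval inside HOXA10, with a score of 34, and the one beyond the 3′ end of HOXD10, with a score of 59.

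The 5 kb windows of the 4 HOXA genes cover 46 kb, and 8 intervals in it (exact Poisson 95% interval 3.45 to 15.8) are 174 per Mb (75.1 to 343). Over all chromosomes, counted between the first and last interval of each, there were 2.65 per Mb. The HOXD windows cover 35.7 kb, and their 2 intervals (0.242 to 7.22) are 56 per Mb (6.78 to 202). The ranges of HOXA and HOXD overlap, and their difference was not tested. These ranges cover counting error only. The value over all chromosomes takes in gene-poor sequence, and the density around other genes was not analysed here.

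The HOXA stretch was among the densest in the data. The genome was cut into 58228 windows of 50 kb, and the one that starts at position 27200001 of chromosome 7 held 8 summits, all of them the HOXA members. Only 7 of the 58228 windows held 8 or more, itself included. With neighbours within 1000 bp counted as 1 site, the same window held 7 sites, and 2 windows, itself included, held as many or more. The window with the HOXD genes held 4 summits, of which 2 were members. Of 5405 windows with any summit, 180 held 4 or more. Among the 7 windows with at least 8 summits, the highest score in a window ran from 25 to 111 with a median of 57. The HOXA window, with a highest score of 34, was the second lowest of them. That rank depends on where the grid falls. With the grid shifted by 25 kb, the fullest HOXA window held 9 summits with a highest score of 57. The summit with that score is not a member and lies below HOXA9, as do non-member summits with scores of 19 and 32 in that window.

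**Figure D4:**
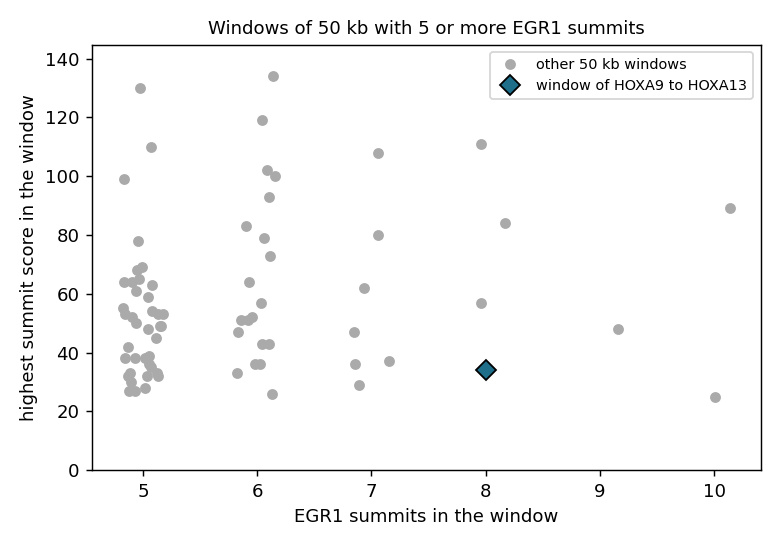
Number of EGR1 summits in a 50 kb window against the highest summit score in it, for all windows with 5 or more summits (points are shifted sideways a little so that they can be told apart). The HOXA window, at 8 summits and a highest score of 34, lies to the right and near the bottom of the plot.

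The dense stretch ended on one side of the HOXA genes and went on for a short way on the other. Above HOXA13, in the direction of HOTTIP and EVX1, the next 100 kb held no summit. Below HOXA9, towards the anterior HOXA genes, the first 10 kb held 4 summits, 2 of them the members beyond the 3′ end of HOXA9. The other two had scores of 19 and 57, the latter above every HOXA member. The second 10 kb held 1 summit, with a score of 32, and the remaining 80 kb held 1, with a score of 29. Around the HOXD genes each side held 3 summits in 100 kb, with scores of 15 to 28 below HOXD13 and 19 to 59 above HOXD10. Copy number and mappability of these stretches were not analysed.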

How the data were processed

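ChIP-seq libraries of EGR1 and of input were made from sonicated nuclei of t-HESC cells. The submitters' processing notes name the build GRCh37.p2 and the tools MACS2 2.1.0, MACS and BWA. Roles, options, thresholds and duplicate treatment are not stated there. The positions of intervals and summits (unit: other) and 1 score per summit were used as deposited by the authors. The score has no stated unit, and it ranked intervals within this list only. No file of the input library was used, and enrichment over input was not analysed here.

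Gene spans on GRCh37 came with the definition of the gene group. An interval was a member when its nearest edge lay within 5 kb of a span. Interval starts were read as BED starts and are printed 1-based, and summits are printed as deposited. Strand, gene order and promoters came from RefSeq on GRCh38.p14 by symbol, and no position was converted. Distance, score limit, joining, window size and motif were varied. The named genes are all 7 members with every interval in reach. Members, lists and windows were chosen with earlier results of these data known. The assignment and motif searches were tested on simulated data. Tools were pandas 2.3.3, numpy 2.4.6 and scipy 1.17.1 under Python 3.11.15, with plots from matplotlib 3.10.9.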

Additional observations from a re-analysis of the deposited data

How the results depend on the processing

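The distance and score limits set the counts by construction. Only intervals touching a gene span left 4 of the 10, with 4 at HOXA and 0 at HOXD. A distance of 1 kb left 6, with 0 at HOXD, and a score of at least 26 left 2, with 1 at HOXA, 1 at HOXD and 2 genes reached. At 10 kb all 7 genes had an interval. For each cluster, the window with most summits was taken. The share of windows with fewer summits than that of HOXA was 99.988%. It was 99.914% with windows of 100 kb, 99.997% with neighbours joined and 99.995%, for 9 summits, with the grid shifted by 25 kb. For HOXD it was 99.691%, and 99.118% at 20 kb, 99.547% at 100 kb, 99.912% joined and 99.227% shifted. Less full windows over the same genes held 1 summit at 20 kb (HOXD) and 2 with the shifted grid (HOXA and HOXD, 97.386%). Most windows were empty: of the 58228 windows of 50 kb, 52823 held no summit. Any window with a summit therefore ranks above these, which by itself makes every share high. Of the 5405 windows with a summit, 7 held at least the 8 summits of HOXA and 180 at least the 4 of HOXD. Joining and shifting the grid were chosen after seeing the data. Promoters with a match numbered 0 for GCGTGGGCG and 6 for GNGGGCG, against 1 for GCGNGGGCG. Median score, 20.5 to 23.5, and median width, 309 to 325.5 bp, moved little over the distances tried. With no replicate and no known depth, the values hold for 1 library.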

Other observations

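Many summit positions in the list sat on a regular grid. Of all summits, 77.2% were exact multiples of 32 bp, and 4 of the 10 members' were. The share over all intervals differed by score: it was 61.4% of the 415 summits with scores of 11 to 15, 75.2% of the 2066 with scores of 20 to 25, and 88.7% of the 788 with scores of 57 or more. Distances of summits from gene starts should be read with that grid in mind.

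The promoters of other HOX genes, 18 promoters of 12 genes in the same RefSeq table (5 HOXA, 1 HOXB, 1 HOXC and 5 HOXD genes), held GNGGGCG in 7 cases (38.9%) and GCGNGGGCG in 2 (11.1%). Their median share of G or C was 56%, with a median of 15 CpGs, against 62.8% and 22 CpGs in the 8 promoters of the members. The other genes include HOXD12, which lies between HOXD13 and HOXD11. Of the 18 promoters, 11 come from the 5 HOXA genes. None of these differences was tested.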
